A study of Homo sapiens with 20 samples.

Results

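A set of 10 genes that dampen MAP kinase signalling or act downstream of it were followed through every library of the series: the dual-specificity phosphatases DUSP1, DUSP2, DUSP4, DUSP5, DUSP6 and DUSP10, the RAS pathway inhibitors SPRY2 and SPRED1, and the mRNA decay factors ZFP36 and ZFP36L1. They were taken by symbol from the 60483 gene rows of the expression matrix, and all 10 were found. The study sequenced total RNA of multiple myeloma lines kept with the solvent DMSO or with I3MO (indirubin-3'-monoxime, an indirubin derivative known as an inhibitor of GSK3 and cyclin-dependent kinases). The 5 models were ANBL6, a bortezomib resistant form of ANBL6 (ANBL6BR below), ARP1, RPMI8226 and U266. Each was measured in DMSO and in I3MO with 2 libraries a group, which gives 10 groups and 20 libraries. The I3MO dose was 5 µM for ANBL6 and ANBL6BR and 10 µM for the 3 other models. Where a 5 µM line is set beside a 10 µM line, dose and model cannot be told apart. The labels give no length of treatment and do not say whether the 2 libraries of a group came from separate cultures, so p-values measure the spread between these libraries, which may be technical. Each model is 1 cell line, and the resistant form is 1 derivative.

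MAP kinases are switched on by phosphorylation of a threonine and a tyrosine, and dual-specificity phosphatases remove both phosphates. DUSP1, DUSP2, DUSP4 and DUSP5 are nuclear and are themselves induced by the signals they end, DUSP6 is cytoplasmic and acts on ERK, and DUSP10 acts on the stress kinases JNK and p38. Sprouty and SPRED proteins act upstream, on the step from growth factor receptors to RAS and RAF. ZFP36 (tristetraprolin) and its relative ZFP36L1 bind AU-rich elements of short-lived mRNAs and recruit the deadenylase that removes the poly(A) tail. Transcripts such as DUSP6 and SPRY2 are often read as a record of ERK pathway activity.

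On hg38 with GENCODE 29, all 10 are protein-coding. Of the nuclear phosphatase genes, 3 lie at chromosome 5:172768090-172771195 (DUSP1), 2:96143166-96145440 (DUSP2) and 10:110497838-110511544 (DUSP5). DUSP6 lies at 12:89347232-89353271, DUSP10 at 1:221701424-221742176, SPRY2 at 13:80335976-80340951, SPRED1 at 15:38252326-38357249, ZFP36 at 19:39406813-39409412 and ZFP36L1 at 14:68787660-68796253. DUSP5, SPRED1 and ZFP36 are on the plus strand and the others on the minus strand. The values below are summed over a gene's exons and do not separate its transcripts.

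Promoter windows of 250 bases upstream of the RefSeq start (GRCh38.p14) were at hand for 8 of the 10 genes, DUSP4 and DUSP5 being the others. The sequences below belong to the 3 genes that were called lower together in ANBL6BR and had a window. Each is 5′ to 3′ on the gene's strand and stops short of the gene's own exons. Capitals mark the cyclic AMP response element TGACGTCA and its core TGACG on either strand. DUSP1 at chr5:172771196-172771445 (minus strand), ZFP36 at chr19:39406597-39406812 (plus strand) and ZFP36L1 at chr14:68796254-68796493 (minus strand, its outermost start) read as follows.
DUSP1: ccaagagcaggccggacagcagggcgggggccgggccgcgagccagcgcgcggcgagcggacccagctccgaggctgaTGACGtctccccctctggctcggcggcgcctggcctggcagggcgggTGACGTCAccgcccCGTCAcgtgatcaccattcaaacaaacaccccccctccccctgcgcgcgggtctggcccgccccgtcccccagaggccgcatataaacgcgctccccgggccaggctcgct
ZFP36: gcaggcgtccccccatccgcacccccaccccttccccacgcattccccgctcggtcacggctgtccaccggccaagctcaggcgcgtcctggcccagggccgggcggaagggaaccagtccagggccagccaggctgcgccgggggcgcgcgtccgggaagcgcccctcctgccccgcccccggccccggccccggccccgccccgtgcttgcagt
ZFP36L1: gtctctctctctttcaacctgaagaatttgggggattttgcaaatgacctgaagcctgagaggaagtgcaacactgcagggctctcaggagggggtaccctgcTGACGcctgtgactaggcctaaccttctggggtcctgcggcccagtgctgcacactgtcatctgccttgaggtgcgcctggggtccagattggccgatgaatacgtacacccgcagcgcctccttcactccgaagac
DUSP1 held the full TGACGTCA at bases -125 to -118 from its start, a core at -172 to -168 and a core on the other strand at -111 to -107. ZFP36L1 held a core at -147 to -143, and the window of its second start, which lies inside its own exons and is not printed, held the full element at -52 to -45. No TGACG was in the ZFP36 window. The full element was found in 578 of 35116 RefSeq windows of this length (1.6%) and the core, which the full element contains, in 21.2%. The letters TGANTCA (AP-1, in 6.6% of windows), TTCNNNGAA (STAT, in 6.6%) and the CArG box (in 1.2%) were searched on both strands and were in no member's window. A match in a window is a description of its letters and was not tied to binding by any file here.

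Libraries held 12.11 to 20.31 M fragments, recovered from the steps between the deposited FPKM values (fragments per kilobase and M fragments). The 2 replicates of a group correlated with r of 0.962 (U266 in I3MO) to 0.989 over the 15687 genes tested. The ANBL6BR DMSO pair (r = 0.97) stood apart in several members, as given below. The ANBL6 I3MO libraries had 32668 and 28419 genes above 0, against 22138 and 22710 in ANBL6 DMSO. Of the 8 plasma cell markers, SDC1 was at 28.8 to 269 FPKM and IRF4 at 15.8 to 265 FPKM in all libraries. JCHAIN was at 10.7 to 232 and TNFRSF17 at 5.66 to 115 FPKM. MZB1 (1.35 to 189), CD38 (1.14 to 30.3) and PRDM1 (1.3 to 25.1) came near 1 FPKM at their lowest. SLAMF7 was low, with a median of 0.153 FPKM over the libraries (0.0028 to 6.45). T cell and monocyte markers summed to at most 0.979 and 0.622 FPKM, and COL1A1, a stromal marker, reached 4.18 FPKM in U266. The epithelial marker EPCAM was at 8.89 to 11 FPKM in ANBL6 and 14.2 to 17.2 in RPMI8226 but at 0 in ANBL6BR, ARP1 and U266, so ANBL6 and its labelled derivative differ in it in every library. KRT5, another epithelial marker, was at 1.05 to 2.32 FPKM in ANBL6 and at 0 to 0.00645 in ANBL6BR. In DMSO 6 of the 8 plasma cell markers were called between these 2 lines, 3 higher and 3 lower in ANBL6BR. Of all genes tested, 51.8% were called between them. What these differences imply for the labelled origin of ANBL6BR was not tested. With I3MO, of the 8 plasma cell markers 0 were called in ANBL6, 1 higher (MZB1, 1.48) and 1 lower (SDC1, -0.8) in ANBL6BR, and 1 higher (PRDM1, 0.68) and 3 lower (SDC1 -1.26, TNFRSF17 -1.68, SLAMF7 -0.4) in ARP1. In RPMI8226 2 were lower (CD38 -1.26, PRDM1 -0.71) and in U266 2 (SDC1 -1.48, JCHAIN -1.47). Of all genes tested, 7.97% were called in ANBL6, 18.4% in ANBL6BR, 37.0% in ARP1, 14.8% in RPMI8226 and 26.2% in U266. The part of these markers in the results below was not tested. In such bulk libraries, fewer cells of a kind and less RNA per cell cannot be told apart.

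The models differed widely in how much of each gene they carried before any I3MO. For 9 of the 9 members tested, DMSO levels differed between the 5 models (limma, joint test, adjusted p under 0.05), but so did 90.0% of all genes tested, so the count says nothing particular about these genes. SPRY2 was too low to test. Of all genes, the share called between 2 models in DMSO was 60.4% for ARP1 against ANBL6, 53.8% for RPMI8226 against ANBL6 and 68.0% for U266 against ANBL6. It was 60.1% for ARP1, 64.1% for RPMI8226 and 64.9% for U266 against ANBL6BR, 50.8% for RPMI8226 and 59.1% for U266 against ARP1, and 61.6% for U266 against RPMI8226. Between genes, levels were set side by side as FPKM per merged exon length. On that scale DUSP5, the nuclear phosphatase that acts on ERK, reached the highest mean of the 10 genes, at 270 in ARP1 and 182 in U266. In ANBL6 the same gene was at 3.79, and the most abundant members there were DUSP2 at 27.8 and ZFP36 at 21.9. ZFP36 was the most abundant in ANBL6BR, at 90.2, and DUSP5 again in RPMI8226, at 46.7.

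**Figure D1:**
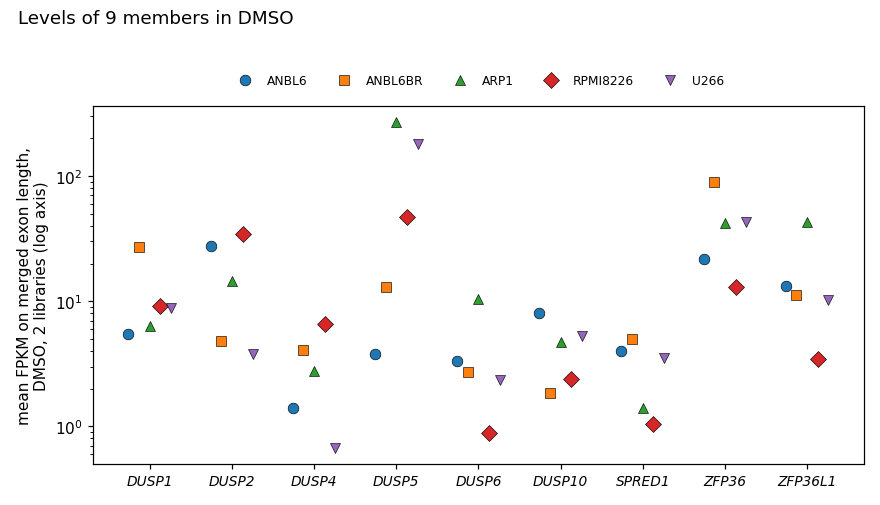
Mean FPKM on merged exon length (log axis) of 9 members in DMSO, 2 libraries per model, 1 symbol per model. DUSP5 spans the widest range, from 3.79 in ANBL6 to 270 in ARP1, and ZFP36 is above 12 in every model.

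Among the nuclear phosphatases, DUSP5 ordered the models ARP1 (237 and 183 FPKM), U266 (149 and 134), RPMI8226 (34.8 and 37.7), ANBL6BR (15.8 and 4.35) and ANBL6 (2.85 and 3.03). ARP1 and U266 did not pass the test of their difference (log2 -0.56, adjusted p = 0.197), while every other pair did. DUSP2, a phosphatase first known from activated lymphocytes, had another order. RPMI8226 (28.6 and 26 FPKM) and ANBL6 (16.8 and 27) led and could not be separated (adjusted p = 0.138), ARP1 followed at 11.3 and 11.6, and ANBL6BR (4.18 and 3.37) and U266 (2.72 and 3.19) were lowest and also not separable (adjusted p = 0.218). DUSP1, which acts most on p38 and JNK, stood out in ANBL6BR, at 16.6 and 38 FPKM. The other 4 models lay between 4.66 and 10.8 FPKM, and none of the pairs among them passed the test.

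DUSP4 was highest in RPMI8226 (5.51 and 5.65 FPKM) and lowest in U266 (0.599 and 0.557), with ARP1 at 2.4 and 2.3, ANBL6 at 1.25 and 1.16, and ANBL6BR split at 5.49 and 1.46. ARP1 did not differ from ANBL6 or ANBL6BR by the test (adjusted p = 0.0949 and 0.505), nor U266 from ANBL6 (0.164). DUSP6 was highest in ARP1 (6.24 and 5.06 FPKM) and lowest in RPMI8226 (0.479 in both libraries). ANBL6 (1.79 and 1.82), ANBL6BR (1.51 and 1.42) and U266 (1.29 and 1.24) lay between, and ANBL6BR passed the test against neither of its neighbours (adjusted p = 0.196 and 0.362). DUSP10 ran from 3.8 and 3.91 FPKM in ANBL6 through U266 (2.39 and 2.65) and ARP1 (2.36 and 2.13) to RPMI8226 (1.02 and 1.28) and ANBL6BR (0.882 and 0.866). U266 and ARP1 were not separable (adjusted p = 0.44), nor were RPMI8226 and ANBL6BR (0.188).

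SPRY2, the Sprouty protein followed here, was close to silent. It had 0 fragments in 12 libraries, those of ANBL6, ANBL6BR and RPMI8226, which allows up to 3 fragments in a library, or 0.0228 to 0.0382 FPKM. In ARP1 it had 5 and 1 fragments in DMSO and 4 and 6 in I3MO, and in U266 11 and 12 in DMSO and 5 and 4 in I3MO. It reached 0.123 FPKM at most, and nothing below is said of its response. SPRED1, which brings neurofibromin to RAS, was expressed in all models, at 5.38 and 3.24 FPKM in ANBL6BR, 3.79 and 3.17 in ANBL6, 2.88 and 3.26 in U266, 1.09 and 1.34 in ARP1, and 1.02 and 0.816 in RPMI8226. The first 3 were not separable from each other, nor were ARP1 and RPMI8226 (adjusted p = 0.462).

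The decay factors also had model-specific levels. ZFP36 was highest in ANBL6BR (28.7 and 50 FPKM), then U266 (18 and 19.3) and ARP1 (18.7 and 18.1), which were not separable (adjusted p = 0.971), then ANBL6 (7.98 and 11.1) and RPMI8226 (6.08 and 5.14). ZFP36L1 was highest in ARP1 (21.5 and 18.3 FPKM) and lowest in RPMI8226 (1.61 and 1.55), with ANBL6 (5.49 and 6.62), ANBL6BR (4.81 and 5.58) and U266 (4.51 and 4.82) close together. Of these 3, ANBL6BR passed the test against neither ANBL6 (adjusted p = 0.223) nor U266 (0.37).

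**Figure D2:**
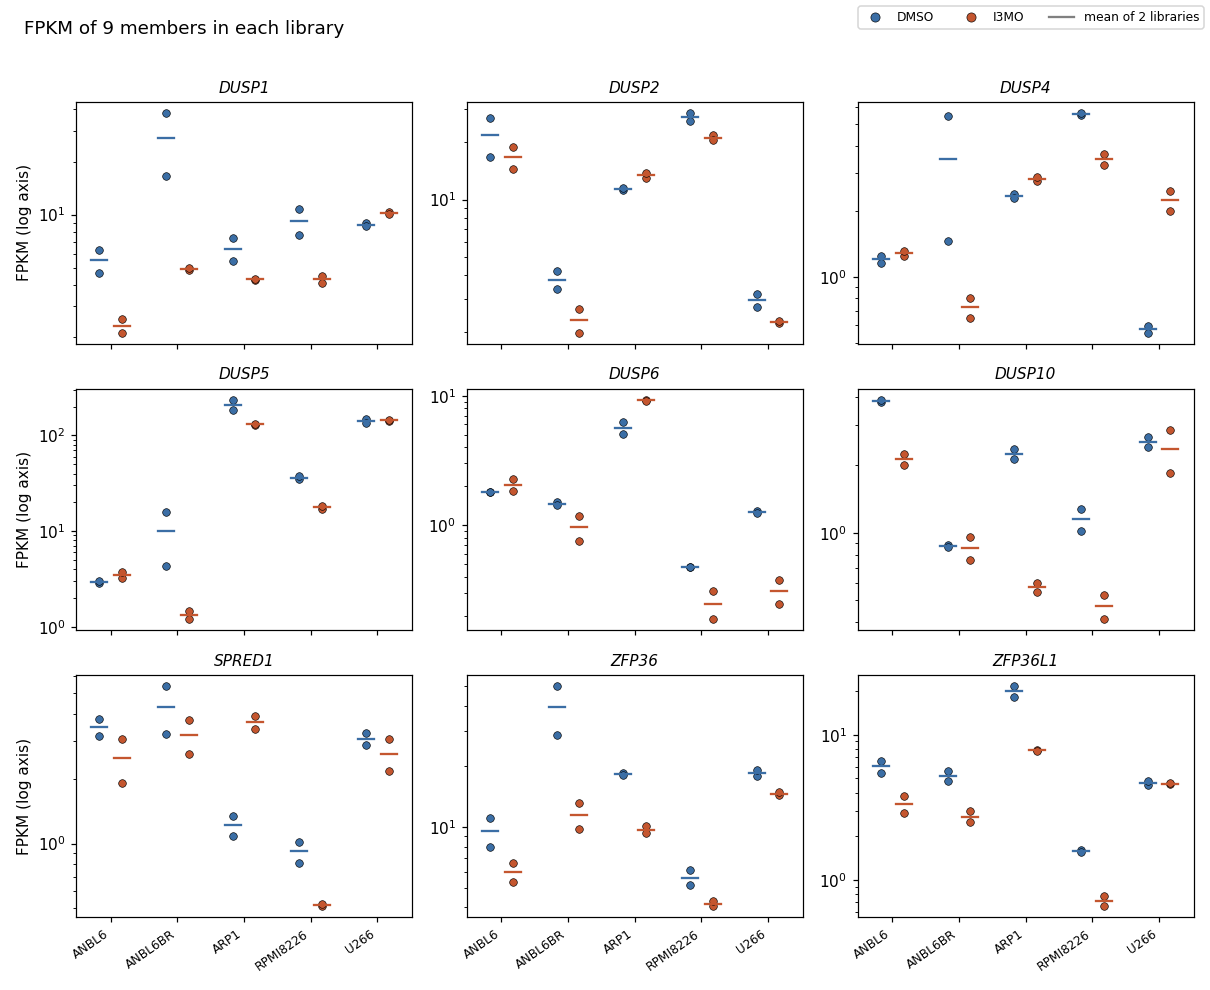
FPKM (log axis, own scale in each panel) of the 9 members tested in all 20 libraries, DMSO in blue and I3MO in orange, with the mean of 2 libraries as a line. ZFP36L1 libraries in I3MO lie below those in DMSO in every model but U266, and the 2 ANBL6BR DMSO libraries lie far apart for DUSP1, DUSP4, DUSP5 and ZFP36.

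I3MO against DMSO was tested in each model with limma on log2(FPKM + 1), over all 15687 genes with at least 1 FPKM in 2 libraries. Differences below are of mean log2(FPKM + 1) with their SE, and a gene is called at an adjusted p under 0.05. Such differences understate the change of genes near or below 1 FPKM. In ANBL6 2 of 9 members were called, both lower, with 7.97% of all genes called (3.87% lower). In ANBL6BR 5 of 9 were called, all lower, with 18.4% of all genes called (8.40% lower). In ARP1 2 were called higher and 3 lower, with 37.0% of all genes called (23.1% higher and 13.9% lower). In RPMI8226 3 were called, all lower (14.8% of all genes, 6.19% higher and 8.62% lower), and in U266 1 was called higher and 1 lower (26.2% of all genes, 10.5% higher and 15.8% lower). The median difference of the 9 members was -0.38 in ANBL6, -0.73 in ANBL6BR, -0.47 in ARP1, -0.55 in RPMI8226 and -0.09 in U266, beside medians of 0.01, 0, 0.03, -0.01 and -0.02 over all genes. In U266 the members' count, 2 of 9, was near the background share.

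Of the decay factors, ZFP36L1 fell in 4 of 5 models, the most of any member. In ARP1 it went from 21.5 and 18.3 FPKM in DMSO to 7.87 and 7.74 in I3MO (-1.24 ± 0.12, adjusted p = 1.39e-05). In ANBL6BR it went from 4.81 and 5.58 to 2.5 and 2.97 FPKM (-0.73 ± 0.12, adjusted p = 0.00114). In all 4 of these models both I3MO libraries lay below both DMSO libraries. ANBL6 libraries went from 5.49 and 6.62 to 3.79 and 2.87 FPKM (-0.71 ± 0.12, adjusted p = 0.00405), a call that was lost without DMSO replicate 2 (-0.59) or without I3MO replicate 2 (-0.55). RPMI8226 libraries went from 1.61 and 1.55 to 0.661 and 0.78 FPKM (-0.58 ± 0.12, adjusted p = 0.00508), lost without I3MO replicate 1 (-0.53). U266 stayed out of this pattern, with 4.51 and 4.82 FPKM in DMSO, 4.58 and 4.66 in I3MO, overlapping groups and a difference of -0.01.

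ZFP36 had a difference below 0 in 5 of 5 models but was called in 2. ANBL6BR libraries went from 28.7 and 50 to 13.2 and 9.81 FPKM (-1.65 ± 0.22, adjusted p = 0.000317). ARP1 libraries went from 18.7 and 18.1 to 10.1 and 9.3 FPKM (-0.86 ± 0.22, adjusted p = 0.00804). In both, the I3MO libraries lay clear of the DMSO libraries. The same held without a call in ANBL6 (7.98 and 11.1 to 5.32 and 6.59 FPKM, adjusted p = 0.119), RPMI8226 (6.08 and 5.14 to 4.05 and 4.29 FPKM, -0.35) and U266 (18 and 19.3 to 14.4 and 14.9 FPKM, -0.33).

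DUSP1 fell in 2 models. In ANBL6BR it was at 16.6 and 38 FPKM in DMSO and at 4.81 and 4.98 in I3MO (-2.15 ± 0.28, adjusted p = 0.000278). The I3MO level there was close to that of untreated ANBL6 (4.66 and 6.31 FPKM). In RPMI8226 it was at 7.66 and 10.8 FPKM in DMSO and at 4.49 and 4.1 in I3MO (-0.93 ± 0.28, adjusted p = 0.0408). That call was lost when any 1 of the 4 RPMI8226 libraries was left out (differences of -0.71 to -1.15). It was also lost in voom on recovered fragments (adjusted p = 0.0612). ANBL6 showed a difference as large that was not called, from 4.66 and 6.31 to 2.53 and 2.13 FPKM (-0.95 ± 0.28, adjusted p = 0.0556). ARP1 libraries were at 7.32 and 5.44 FPKM and then 4.26 and 4.3 (-0.47), and U266 libraries at 8.98 and 8.58 and then 10.3 and 10 (0.19), neither of them called.

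The 2 other nuclear phosphatases with calls were DUSP5 and DUSP4. In ANBL6BR DUSP5 was at 15.8 and 4.35 FPKM in DMSO and 1.47 and 1.19 in I3MO (-2.03 ± 0.35, adjusted p = 0.0019). In ARP1 it was at 237 and 183 and then 128 and 133 FPKM (-0.67, adjusted p = 0.167), and in RPMI8226 at 34.8 and 37.7 and then 17 and 18.4 FPKM (-1, adjusted p = 0.0822). In both the groups did not overlap, and voom on recovered fragments called both (adjusted p = 0.0382 in ARP1 and 0.0231 in RPMI8226). In U266, where DUSP5 was second to ARP1 in DMSO, libraries were at 149 and 134 in DMSO and 143 and 145 FPKM in I3MO (0.03). ANBL6 stayed low, at 2.85 and 3.03 and then 3.24 and 3.75 FPKM (0.19).

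DUSP4 went in opposite directions in 2 models. It rose in U266, from 0.599 and 0.557 FPKM in DMSO to 2.02 and 2.47 in I3MO (1.04 ± 0.29, adjusted p = 0.0199). It fell in ANBL6BR, from 5.49 and 1.46 to 0.647 and 0.806 FPKM (-1.21 ± 0.29, adjusted p = 0.0126). The groups did not overlap in either model. The U266 call was lost without DMSO replicate 1, DMSO replicate 2 or I3MO replicate 2 (adjusted p = 0.0782, 0.09 and 0.094, differences of 1.06, 1.02 and 0.93), and the ANBL6BR call without either I3MO library (0.0749 and 0.0584). RPMI8226 libraries were at 5.51 and 5.65 and then 3.27 and 3.66 FPKM (-0.56), ARP1 libraries at 2.4 and 2.3 and then 2.75 and 2.86 (0.18), and ANBL6 libraries at 1.25 and 1.16 and then 1.25 and 1.31 (0.05), none of them called. DUSP2 was called in no model. Its differences ran from -0.53 in ANBL6BR (4.18 and 3.37 to 2.65 and 1.99 FPKM, adjusted p = 0.0676) to 0.21 in ARP1 (11.3 and 11.6 to 13 and 13.8 FPKM).

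DUSP6, the cytoplasmic phosphatase of ERK, rose in 1 line and fell in another. In ARP1 it was at 6.24 and 5.06 FPKM in DMSO and at 9.32 and 9.17 in I3MO (0.63 ± 0.11, adjusted p = 0.000951). In U266 it was at 1.29 and 1.24 FPKM in DMSO and at 0.245 and 0.376 in I3MO (-0.79 ± 0.11, adjusted p = 0.000225). The groups lay apart in both. ANBL6BR (1.51 and 1.42 to 0.758 and 1.18 FPKM, -0.33) and RPMI8226 (0.479 in both to 0.188 and 0.309 FPKM, -0.25) were not called, and ANBL6 was at 1.79 and 1.82 and then 1.85 and 2.27 FPKM (0.12). Of the merged exon bases of DUSP6, 40.5% overlap a gene on the other strand, AC024909.2, which was at 0 to 0.157 FPKM. Whether counting used strand is not given in the sources used here, so reads of the pair cannot be told apart.

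DUSP10, the phosphatase of JNK and p38, fell in 3 models. In ARP1 it went from 2.36 and 2.13 FPKM to 0.6 and 0.543 (-1.05 ± 0.12, adjusted p = 5.71e-05). In ANBL6 it went from 3.8 and 3.91 to 2.24 and 1.99 FPKM (-0.64 ± 0.12, adjusted p = 0.00839), and in RPMI8226 from 1.02 and 1.28 to 0.529 and 0.412 FPKM (-0.55 ± 0.12, adjusted p = 0.00972). No I3MO library of these 3 models reached its DMSO libraries. The ANBL6 call was lost without DMSO replicate 1, DMSO replicate 2 or I3MO replicate 2 (-0.66, -0.63 and -0.58), and the RPMI8226 call without DMSO replicate 2 or I3MO replicate 2 (-0.46 and -0.49). ANBL6BR (0.882 and 0.866, then 0.756 and 0.957 FPKM) and U266 (2.39 and 2.65, then 1.84 and 2.86 FPKM) had overlapping groups.

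SPRED1 rose in ARP1, from 1.09 and 1.34 FPKM in DMSO to 3.92 and 3.4 in I3MO (1.07 ± 0.21, adjusted p = 0.00169), with the groups apart. In the 4 other models its difference lay between -0.38 and -0.18 and was not called. RPMI8226 libraries were at 1.02 and 0.816 and then 0.512 and 0.525 FPKM, while ANBL6BR (5.38 and 3.24, then 2.61 and 3.77) and U266 (2.88 and 3.26, then 3.06 and 2.17) overlapped. In ARP1, median-ratio scaling lowered every member's difference (DUSP6 to 0.41, SPRED1 to 0.91, ZFP36L1 to -1.47) and kept all 5 calls. The same scaling moved the share of higher genes among all ARP1 calls from 62.5% to 42.9%, and took DUSP2 and DUSP4, which were not called, from 0.21 and 0.18 to -0.02 and 0.

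**Figure D3:**
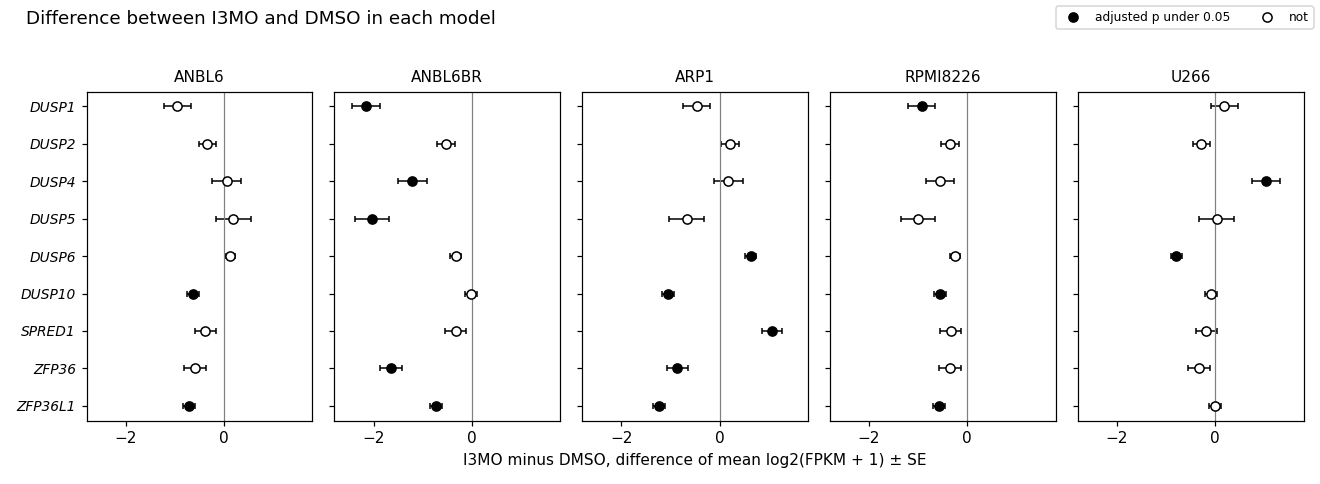
Difference of mean log2(FPKM + 1) between I3MO and DMSO with its SE, for 9 members in each model; filled points passed an adjusted p under 0.05. ZFP36L1 is filled and below 0 in ANBL6, ANBL6BR, ARP1 and RPMI8226, and the filled points above 0 are DUSP6 and SPRED1 in ARP1 and DUSP4 in U266.

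In RPMI8226 all 9 members had both I3MO libraries below both DMSO libraries, where 33.4% of all genes did so. In ANBL6BR 7 members did so (24.2% of all genes) and 2 overlapped. In ANBL6 5 members lay apart and lower (25.0% of all genes) and 2 apart and higher (32.5%). In ARP1 5 lay apart and lower (25.5%) and 4 apart and higher (38.8%), and in U266 3 apart and lower (31.7%) and 2 apart and higher (23.1%).

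Whether the I3MO difference was equal in the 5 models was tested jointly for each gene. Of the 9 members 8 were called as unequal (limma), with 44.5% of all genes called. DUSP6 had the smallest adjusted p (0.000365), followed by ZFP36L1 (0.00182), DUSP10 (0.0029), DUSP1 (0.00588), SPRED1 (0.00734), DUSP4 (0.00882), DUSP5 (0.0179) and ZFP36 (0.0185). DUSP2 did not pass (adjusted p = 0.177). The calls of DUSP5 and ZFP36 were lost without ANBL6BR I3MO replicate 2 (adjusted p = 0.0558 and 0.0786), and without ANBL6 DMSO replicate 1 DUSP2 was called as well (0.0305). Since dose follows model here, a difference between ANBL6 or ANBL6BR and the other lines is also one of dose.

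With the 5 models as the replicates, limma called 0 of 9 members and 0% of all genes. This fit weighs the 5 models alike, though ANBL6BR is labelled a form of ANBL6, and it pools the 2 doses. At an unadjusted p under 0.05 it gave 4 members, DUSP1, DUSP10, ZFP36 and ZFP36L1, and 2651 of 15687 genes. The mean differences over models were -0.86 ± 0.3 for DUSP1 (adjusted p = 0.221), -0.76 ± 0.2 for ZFP36 (0.15), -0.66 ± 0.17 for ZFP36L1 (0.145) and -0.47 for DUSP10 (0.223). All 9 members had a mean difference below 0, as did 47.2% of all genes. Those of DUSP4 (-0.1) and SPRED1 (-0.03) turned above 0 when ANBL6BR DMSO replicate 1 was left out (0.04 and 0.03), and that of SPRED1 also without ANBL6 I3MO replicate 2 (0.02), ANBL6BR I3MO replicate 1 (0.01) or U266 I3MO replicate 2 (0.01). ZFP36, ZFP36L1 and DUSP10 were below 0 in 5 of 5 models, though ZFP36L1 in U266 (-0.01) and DUSP10 in ANBL6BR (-0.02) only just, and DUSP1 in 4 of 5.

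The resistant and the parental ANBL6 differed in DMSO in 6 of 9 members, 4 higher and 2 lower in ANBL6BR, with 51.8% of all genes called (27.0% higher and 24.8% lower). DUSP1 was higher in ANBL6BR by 2.03 ± 0.28 (16.6 and 38 against 4.66 and 6.31 FPKM, adjusted p = 4.44e-05), and ZFP36 by 1.9 ± 0.22 (28.7 and 50 against 7.98 and 11.1 FPKM, 8.57e-06). DUSP5 was higher by 1.27 ± 0.35 (adjusted p = 0.00858) and DUSP4 by 0.86 ± 0.29 (0.0263). DUSP2 was lower by -2.23 ± 0.18 (adjusted p = 3.93e-07) and DUSP10 by -1.37 ± 0.12 (8.68e-07). The DMSO libraries of the 2 lines lay apart for these 6 genes, and the share of all genes that did so was not counted. The DUSP5 difference was 0.44 without ANBL6BR DMSO replicate 1 and 2.09 without replicate 2. The DUSP4 difference was 0.16 without ANBL6BR DMSO replicate 1, and its call was lost without that library or either ANBL6 library (0.89 and 0.83). Without ANBL6BR DMSO replicate 2 the DUSP4 difference was 1.56. In a fit of the DMSO libraries of these 2 lines alone, limma called 4 members, 2 higher and 2 lower, with 55.9% of 10732 genes called. At an unadjusted p under 0.05 it also gave 4 members, so 2 of the higher calls were not reached there.

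The 2 ANBL6BR DMSO libraries disagreed in these same genes, and in opposite ways. Replicate 2 was higher for DUSP1 (by 1.15 on the log2 scale) and ZFP36 (0.78), a gap that 2.26% and 6.30% of all tested genes matched or passed. Replicate 1 was higher for DUSP5 and DUSP4 (replicate 2 minus replicate 1 of -1.65 and -1.4), a gap that 0.669% and 1.18% of tested genes matched. SPRED1 was also higher in replicate 1 (-0.59), a gap that 11.5% of tested genes matched or passed. DUSP2, DUSP6, DUSP10 and ZFP36L1 differed by at most 0.25 in size, beside a median of 0.16 over all genes. All of the 5 differences with I3MO in ANBL6BR stayed below 0 without DMSO replicate 1 and without DMSO replicate 2, but their sizes changed. Each of these fits leaves 1 ANBL6BR DMSO library, so the disagreement of the pair no longer enters the spread. Only effect sizes are given for them. Without replicate 1 the differences were -2.72 for DUSP1, -2.04 for ZFP36, -1.2 for DUSP5, -0.51 for DUSP4 and -0.82 for ZFP36L1. Without replicate 2 they were -1.58, -1.26, -2.85, -1.91 and -0.64. In a fit of the 4 ANBL6BR libraries alone, 0 of 8 members and 0 of 9990 genes were called (DUSP10 was under the filter), with 5 members and 2849 genes at an unadjusted p under 0.05.

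**Figure D4:**
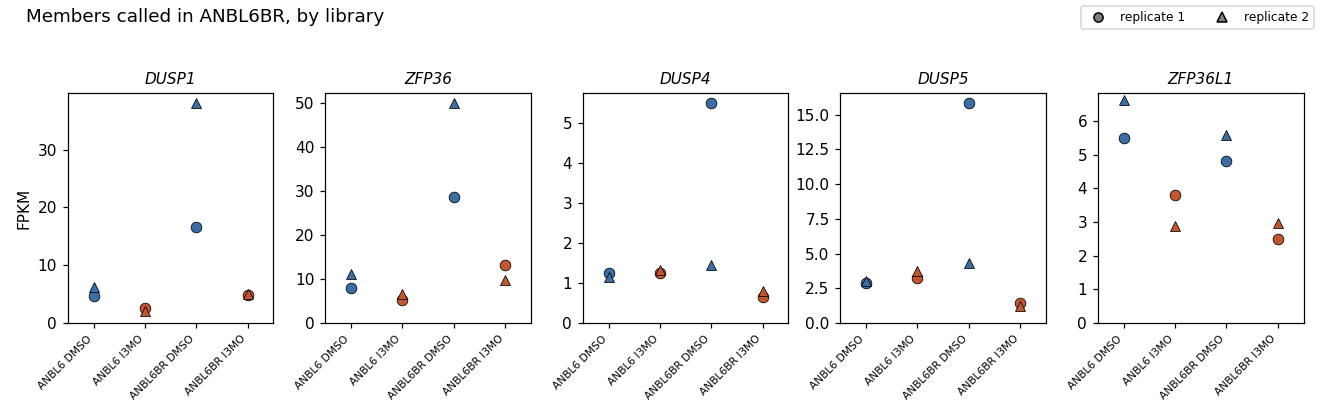
FPKM of the 5 members called lower in ANBL6BR, in ANBL6 and ANBL6BR with DMSO (blue) or I3MO (orange), circles for replicate 1 and triangles for replicate 2. The 2 ANBL6BR DMSO libraries are 16.6 and 38 for DUSP1 and 15.8 and 4.35 for DUSP5, in opposite order. The ANBL6BR I3MO libraries lie closer together for these 2 genes, at 4.81 and 4.98 for DUSP1 and 1.47 and 1.19 for DUSP5.

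At the shared dose of 5 µM the response to I3MO differed between ANBL6BR and ANBL6 in 2 of 9 members, with 8.47% of all genes called. DUSP5 fell in ANBL6BR (-2.03) and was not called in ANBL6, where both I3MO libraries lay above both DMSO libraries (0.19), a difference of the differences of -2.22 ± 0.5 (adjusted p = 0.0189). DUSP10 fell in ANBL6 (-0.64) and was not called in ANBL6BR (-0.02), a difference of 0.63 ± 0.17 (adjusted p = 0.0438). ZFP36 (-1.06, adjusted p = 0.0524), DUSP1 (-1.2, 0.0813) and DUSP4 (-1.26, 0.0822) did not pass. The DUSP5 call was lost without ANBL6 DMSO replicate 1 (-2.18), ANBL6 DMSO replicate 2 (-2.25), ANBL6 I3MO replicate 2 (-2.13) or ANBL6BR I3MO replicate 2 (-2.13). Leaving out any 1 of the 8 libraries ended the DUSP10 call, as did voom on recovered fragments (adjusted p = 0.169). Without ANBL6BR DMSO replicate 1 the difference was -1.77 for DUSP1, -1.45 for ZFP36, -0.56 for DUSP4 and -1.39 for DUSP5. Without ANBL6BR DMSO replicate 2 it was -0.63 for DUSP1, -0.67 for ZFP36, -1.96 for DUSP4 and -3.04 for DUSP5.

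Lists of related genes were read in the same fits. Of all genes, 7.97% were called in ANBL6, 18.4% in ANBL6BR, 37.0% in ARP1, 14.8% in RPMI8226 and 26.2% in U266. The counts below stand beside these shares, and no list was tested as a set. Of 12 other phosphatases of the MAP kinase and atypical groups, 9 were tested, 0 were called in ANBL6 and in ANBL6BR, 1 higher and 2 lower in ARP1, and 1 higher and 1 lower in both RPMI8226 and U266. DUSP9 fell in ARP1 (-0.67 ± 0.07) and RPMI8226 (-0.47 ± 0.07). DUSP7, chosen after its values were seen, was lower in ARP1 (-0.48) and U266 (-0.57) and higher in RPMI8226 (0.65), and the other calls were STYX (0.96 in ARP1) and DUSP3 (0.59 in U266). DUSP23 and DUSP14 were called in no I3MO comparison. Of 11 other Sprouty, SPRED and RAS-inhibiting genes, 10 were tested, with 0 called in ANBL6, 1 higher and 1 lower in ANBL6BR, 5 higher and 2 lower in ARP1, 2 lower in RPMI8226 and 2 higher in U266. SPRED3 rose in ANBL6BR (0.82 ± 0.12), ARP1 (0.55) and U266 (0.57). SPRED2 fell in ANBL6BR (-0.48) and RPMI8226 (-0.57), and RASA3, a RAS GTPase-activating protein, in ARP1 (-0.89) and RPMI8226 (-0.52).

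Of 23 cascade genes from RAS to ERK, JNK and p38, 19 were tested. In ANBL6 0 were called (7.97% of all genes), in ANBL6BR 2 higher and 5 lower (18.4%), and in ARP1 2 higher and 7 lower (37.0%). In RPMI8226 2 were higher and 2 lower (14.8%), and in U266 3 higher and 4 lower (26.2%). MAPK3, which encodes ERK1, fell in ANBL6BR (-0.63 ± 0.16), ARP1 (-0.79) and RPMI8226 (-0.57). MAP2K2, which encodes MEK2, rose in ANBL6BR (0.45 ± 0.11), RPMI8226 (0.47) and U266 (0.51). MAPKAPK2, a kinase downstream of p38, fell in ARP1 (-0.63) and U266 (-0.55).

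Of 12 transcripts commonly read as output of ERK, 10 were tested. In ANBL6 1 was lower (7.97% of all genes called), in ANBL6BR 2 were lower (18.4%), and in ARP1 1 was higher and 1 lower (37.0%). In RPMI8226 1 was higher and 3 lower (14.8%), and in U266 2 higher and 4 lower (26.2%). ETV4, an ETS factor, fell in ANBL6BR (-0.51 ± 0.08), ARP1 (-0.67), RPMI8226 (-0.94) and U266 (-0.41). FOS fell in ANBL6 (-0.93 ± 0.2), ANBL6BR (-0.69) and U266 (-1.74). MYC was called in no model, with differences from -1.15 in RPMI8226 (limma, adjusted p = 0.0554) to 0.24 in ANBL6BR. Its level was 46.5 to 111 FPKM in RPMI8226, 2.55 to 10.9 in ANBL6BR and only 0.217 to 0.721 in U266. A difference of log2(FPKM + 1) understates the change at the U266 level. In U266, where DUSP6 fell and DUSP4 rose, the immediate early factor EGR1 (-5.21 ± 0.68, adjusted p = 0.000122) and the cyclin gene CCND1 (-2.46 ± 0.12, adjusted p = 6.3e-08) fell, while IER3 (0.78, adjusted p = 0.000983) and ETV5 (0.72, 0.00438) rose, all 4 chosen after their values were seen.

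Of 14 genes that bind AU-rich elements or shorten and decap mRNA, all were tested. In ANBL6 1 was called lower (7.97% of all genes called), in ANBL6BR 2 (18.4%), in RPMI8226 2 (14.8%) and in U266 3 (26.2%), with 0 higher. In ARP1 6 were higher and 4 lower (37.0%). KHSRP fell in ANBL6 (-0.37 ± 0.08), ANBL6BR (-0.33), ARP1 (-0.57) and U266 (-0.29). HNRNPD fell in ANBL6BR (-0.56 ± 0.1), ARP1 (-0.69) and U266 (-0.77), and ELAVL1 in ARP1 (-0.45). The third gene of the ZFP36 family, ZFP36L2, rose in ARP1 (1.89 ± 0.29, adjusted p = 0.000358), where ZFP36 and ZFP36L1 fell. The deadenylase subunit CNOT7 (1.07) and the decapping enzyme DCP2 (1.03) also rose there. These 3 were chosen after their values were seen. Of 11 mRNAs known to be bound by ZFP36, 7 were tested, with 0 called in ANBL6, 2 lower in ANBL6BR, 2 higher and 2 lower in ARP1, 1 higher and 1 lower in RPMI8226, and 2 higher and 3 lower in U266. PIM1 fell in ANBL6BR (-1.99 ± 0.21), ARP1 (-0.98), RPMI8226 (-1.07) and U266 (-2.11). VEGFA rose in ARP1 (0.86 ± 0.07), RPMI8226 (0.31) and U266 (1.1), and CCL3 fell in ANBL6BR (-0.62) and U266 (-0.96). IL10, chosen after its values were seen, rose by 3.37 ± 0.08 in ARP1 (adjusted p = 2.95e-10). Calls among these mRNAs went in both directions in ARP1, where ZFP36 and ZFP36L1 fell and ZFP36L2 rose. Whether they are tied to the levels of these 3 factors was not tested.

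The members did not share a single pattern over the 10 group means of log2(FPKM + 1). Among 36 pairs of members, Pearson's r ran from -0.70 to 0.77 with a median of 0.17, and 22 were above 0. The highest were DUSP6 with ZFP36L1 (0.77) and DUSP1 with ZFP36 (0.75), and the lowest DUSP2 with ZFP36 (-0.7). Leaving DUSP1 aside, the gene most like each member over those 10 means was APP for DUSP2 (0.989), ID1 for DUSP4 (0.864), NDUFA6 for DUSP5 (0.984), KNSTRN for DUSP6 (0.977), ALPK3 for DUSP10 (0.913), TRIP12 for SPRED1 (0.97), CAMK2G for ZFP36 (0.955) and ARNT for ZFP36L1 (0.978). The next ones were E2F7 (0.971) and TDG (0.963) for DUSP6, and YY1AP1 (0.978) and BTN2A1 (0.946) for ZFP36L1. The 10 means share models and libraries, so these values are a description.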

How the data were processed

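The 20 libraries were made from total RNA. The authors deposited FPKM for 60483 genes, in a joint table and in 20 tables of 1 library each that are identical to it. The submitters' processing notes name Trimmomatic (0.32 and 0.36 are both named), STAR, SAMtools and the hg38 build. The counting tool, the annotation and any strand setting are not given in the sources used here. Gene symbols came from a table of gene names (41124 matched), and positions and exons from GENCODE 29 (56753 identifiers found, 37168 with the same version). The gene length behind the FPKM was the summed length of all exons of all transcripts, which for the 9 members tested gave whole fragments; that of SPRY2 was found by search and is less sure. FPKM on merged exon length rescales to the bases covered by any exon.

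The 10 members, the gene lists and the markers were chosen with earlier results of these data known. The test was limma 3.58.1 (R 4.3.3) on log2(FPKM + 1), group means over 20 libraries with an intensity trend, for the 15687 genes that reached 1 FPKM in 2 or more libraries; p-values were adjusted by Benjamini-Hochberg over all of them. The comparison across models used the 10 group means with model as a block. Named beside the members were, in each list, the 3 tested genes with the smallest p across models, and the genes most like each member (up to 3); the likeness result for DUSP1 is not reported here. Alternatives were a pseudocount of 0.1, no filter, median-ratio scaling, no trend, each library left out, a replicate block and the groups compared alone; voom on recovered fragments and a crossed block in ARP1 were added after seeing the data. Scripts were tested on simulated data. Members had 25 to 13420 fragments in a library, SPRY2 aside (0 to 12).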

Additional observations from a re-analysis of the deposited data

Results flagged for a closer look

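Differences between models in the response to I3MO passed the joint test (limma, adjusted p) for DUSP6 (0.000365), ZFP36L1 (0.00182), DUSP10 (0.0029), DUSP1 (0.00588), SPRED1 (0.00734), DUSP4 (0.00882), DUSP5 (0.0179) and ZFP36 (0.0185). DUSP4 was called higher in U266 and lower in ANBL6BR, and DUSP6 higher in ARP1 and lower in U266. At the same 5 µM, the response of ANBL6BR minus that of ANBL6 was -2.22 on the log2 scale for DUSP5, which fell in ANBL6BR and was not called in ANBL6 (0.19), and 0.63 for DUSP10, which fell in ANBL6 and was not called in ANBL6BR (-0.02). Without ANBL6BR DMSO replicate 1 the DUSP5 value was -1.39, and without ANBL6BR DMSO replicate 2 it was -3.04. The DUSP5 call was lost without ANBL6 DMSO replicate 1 or 2, ANBL6 I3MO replicate 2 or ANBL6BR I3MO replicate 2. The DUSP10 call was lost when any 1 of the 8 libraries was left out, and in voom on recovered fragments (adjusted p = 0.169). The 8 joint tests compare models that differ in dose as well.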

How the results depend on the processing

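The counts of called members below are set beside those of the report. A fit across the 5 models on the 20 libraries in place of the 10 group means, with model and replicate number as a replicate block, called 4 members lower (DUSP1, DUSP10, ZFP36 and ZFP36L1, with 14.1% of all genes) in place of 0; the unit and the block changed together. Elsewhere the replicate block gave 1 in place of 2 for the difference between ANBL6BR and ANBL6; it left 7 of 9 in the joint test (SPRED1 and ZFP36 lost, DUSP2 gained, 25.1% of all genes in place of 44.5%), 6 in ANBL6BR (DUSP2 gained, 12.9% in place of 18.4%) and 2 in RPMI8226 (DUSP1 lost, 9.82% in place of 14.8%), and changed no other call. Same-numbered libraries did not deviate together (correlations of -0.01 in ANBL6, 0.03 in ANBL6BR, -0.11 in ARP1, -0.03 in RPMI8226 and -0.04 in U266), so the numbers were not taken as pairs. A crossed pairing in ARP1 gave 5 calls, 2 higher and 3 lower. With the compared groups alone, the count was 0 of 8 in ANBL6BR, 7 of the 7 that passed the filter in RPMI8226 (33.2% of 8813 genes called) and 0 for the difference between ANBL6BR and ANBL6 (5 members and 3073 of 11903 genes at an unadjusted p under 0.05, limma). That difference gave 1 call with a pseudocount of 0.1, with no filter, with median-ratio scaling and with voom. ANBL6BR against ANBL6 in DMSO gave 4 calls with the compared groups alone, 2 higher and 2 lower (55.9% of 10732 genes called). With no filter it gave 5, 3 higher and 2 lower (20.5% of 44284 genes called). Leaving out 1 library at a time gave 0 to 2 calls in ANBL6 (0 without DMSO replicate 2 or I3MO replicate 2, with 3 and 5 members at an unadjusted p under 0.05, limma), 4 to 5 in ANBL6BR, 5 in ARP1, 1 to 2 in RPMI8226, 1 to 2 in U266, 0 to 4 for the difference (at 0, with 5 to 7 members at an unadjusted p under 0.05), 5 to 6 for ANBL6BR against ANBL6 in DMSO, 6 to 9 in the joint test of responses, 9 in the joint test of levels and 0 across models; a lone library was then assumed to vary like the other groups. No member called in the report changed its sign under a setting. The cause of these shifts was not tested. Depth limits SPRY2. DUSP6, DUSP10, DUSP4, SPRED1 and ZFP36L1 had a mean under 1 FPKM in at least 1 group, where differences of log2(FPKM + 1) understate the change.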
